A study of Mus musculus with 6 samples.

Results

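The extracellular proteases and their inhibitors are the genes with which fibroblasts cut, shed and remodel the matrix and the proteins on their own surface. The list held 39 genes, chosen by name as matrix metalloproteinases (MMPs), ADAM and ADAMTS proteases, surface peptidases, the plasminogen system, serpins and tissue inhibitors of metalloproteinases (TIMPs). By function, 30 were proteases, 6 were inhibitors or serpins, and 3 were accessory proteins. Of these, 36 had at least 1 probe under their symbol, out of 17913 genes named on the array, and 53 probes stood for them. Adam19, Adamts5 and Pappa had none, so no expression value is given for them. The study set mouse embryonic fibroblasts (MEFs) with truncated NELF-B, named ATG-NELF-B in the sample titles, against MEFs with full-length NELF-B, named FL-NELF-B, with 3 Illumina bead arrays per form. NELF-B is a subunit of the negative elongation factor, which holds RNA polymerase II near promoters. Both sets of cells had a C57BL/6 background and were grown in DMEM with 10% serum and taken at 50% confluence. The labels do not state how either form was brought into the cells, whether each set is 1 clone, or whether the replicates of a form grew as separate cultures. The p-values therefore reflect only how far these samples spread, and that spread may be technical.

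MMPs and ADAMTS enzymes are secreted or membrane-bound zinc proteases that digest collagens, proteoglycans and other matrix proteins, and most are made as inactive precursors. TIMPs block their active sites, RECK restrains MMPs at the cell surface, and serpins mostly trap serine proteases such as the plasminogen activators. ADAM proteases release the outer parts of membrane proteins, and surface peptidases trim small peptides outside the cell.

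Median intensities lay between 143 and 152 on the 6 arrays, 46.4% to 48.7% of probes were above background, and the number of arrays limits the precision. Levels below are background-corrected, quantile-normalized log2 intensities, which can be compared between arrays for 1 gene but not between genes. Changes are limma's log2 fold changes, truncated over full-length, each with its standard error (SE) and n = 3 arrays per form. A gene was called where its p, adjusted over all genes by Benjamini-Hochberg, was under 0.05. Of 7 fibroblast markers, 6 (Col1a1, Col1a2, Col3a1, Pdgfra, Pdgfrb and Vim) were above background on all 6 arrays, and Thy1 was on none. Of the markers of other cell types, Adgre1, Lyz2, Itgam, Pecam1, Cdh5 and Krt18 were above background on no array, while Cd68 was on all 6, Csf1r on 2 truncated and 3 full-length arrays, and Kdr on 1 truncated and 3 full-length arrays. Of the epithelial markers, Cdh1 was above background on 2 truncated and 3 full-length arrays and overlapped between the forms (-0.19 ± 0.13, SE). Ptprc was above background on 1 truncated array and no full-length array, and Tek and Krt8 each on 1 full-length array and no truncated array.

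Of the 36 members with a probe, 28 were above background on at least 3 arrays and were tested, 23 of them on all 6. With truncated NELF-B, 4 of the 28 fell and none rose, namely the surface peptidases Anpep and Fap, the serpin gene Serpinf1 and the stromelysin gene Mmp3, which is 14.3% of the members tested. Among all 8990 genes tested 1.6% were called, and 1.09% were called lower. The list was chosen with earlier results of these data known, so its counts and shares describe it and do not test it. In the fit of these 28 members, 24 log2 fold changes lay below 0 and 4 above, with a median of -0.32, against 0.01 over all genes tested. Of those 8990 genes, 4341 lay below 0. At an unadjusted p under 0.05, 14 members were lower, where 10.3% of all genes were. The truncated arrays lay wholly below the full-length arrays for 15 members, where 12.8% of all genes did so, and wholly above for 1, Plaur, where 12.9% did so. A filter on detection can favour genes that are bright in 1 group, and Fap was the 1 tested member that was above background in only 1 of the forms. With no filter, the 36 members had a median of -0.26, 29 lay below 0, and the truncated arrays lay wholly below for 16, where 8.94% of 17913 genes did so, but only Fap and Serpinf1 were then called. In RNA of whole cultures, fewer cells of a type and less RNA per cell cannot be told apart.

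**Figure D1:**
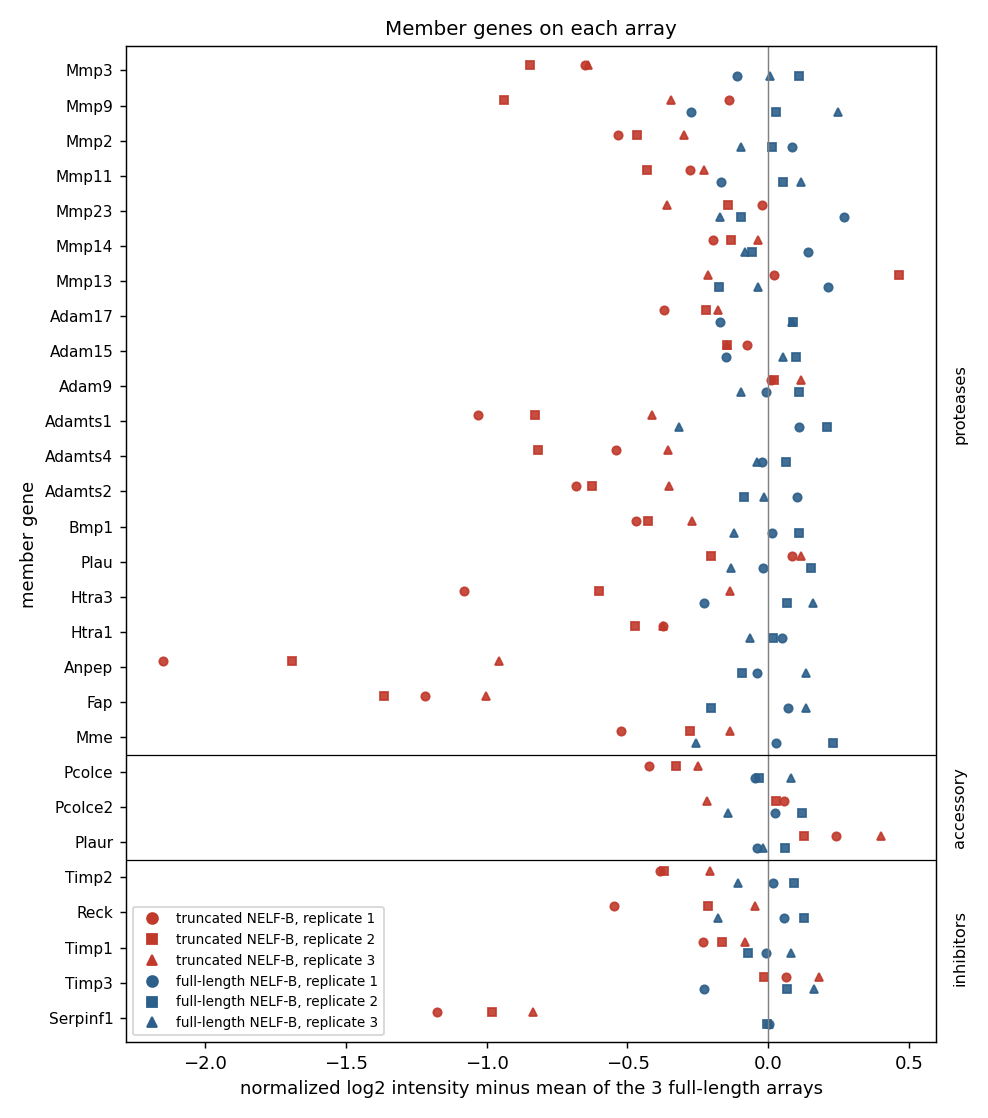
Normalized log2 intensity of each of the 28 tested members on every array, less the mean of the 3 full-length arrays (horizontal axis), with truncated NELF-B in red above full-length NELF-B in blue and the replicate shown by the marker's shape. The red points of Anpep, Fap, Serpinf1 and Mmp3 stand clear to the left of the blue ones, and replicate 3 is the red point nearest to the blue ones for many members.

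Of the 4 members that fell, Anpep and Fap encode surface peptidases. Anpep encodes aminopeptidase N, which removes N-terminal residues from peptides outside the cell. It read 4.86, 5.32 and 6.05 on truncated replicates 1, 2 and 3, against 6.97, 6.92 and 7.14 on full-length replicates 1, 2 and 3, all on the log2 scale. The forms did not overlap, the truncated arrays were spread far more widely than the full-length ones, and replicate 3 was the highest of the truncated arrays. The Anpep mean was 5.41 ± 0.60 (SD, n = 3) with truncated and 7.01 ± 0.12 (SD, n = 3) with full-length NELF-B, a log2 fold change of -1.60 ± 0.26 (SE, limma adjusted p = 0.0346) or 3.03-fold lower. Its 95% confidence interval ran from -2.18 to -1.02. The size depended on the background correction, with log2 fold changes of -0.61 with none, -0.59 in the deposited normalized table and -0.90 with normexp without negative controls, and the Anpep probe was above background on 2 truncated and 3 full-length arrays.

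Fap, fibroblast activation protein, is a surface serine protease that cleaves after proline and marks activated fibroblasts. Its probe was above background on none of the truncated arrays, which read 4.67, 4.52 and 4.88, and on all full-length arrays, which read 5.96, 5.68 and 6.02. The groups were separated by a gap wider than the range within either. Fap was at least 1.75-fold lower with truncated NELF-B. Here the truncated mean was replaced by 5.08, the mean over the 3 arrays of the lowest signal above background. Fap passed the detection filter only through the full-length arrays. Its limma adjusted p of 0.0189 came from the measured values and was not computed for this bound. This bound holds only for the background correction and the offset of 16 used here, since the measured log2 fold change of Fap, -1.19 in this fit, was -0.64 with an offset of 50, -0.59 with normexp without negative controls, -0.37 in the deposited normalized table and -0.35 with no background correction. The measured means were 4.69 ± 0.18 (SD, n = 3) with truncated and 5.89 ± 0.18 (SD, n = 3) with full-length NELF-B. Dpp4, dipeptidyl peptidase 4, a close relative of Fap that cuts dipeptides from hormones and chemokines, was not above background on any array. Mme, the zinc peptidase neprilysin, read 9.41, 9.65 and 9.80 on the truncated and 9.96, 10.16 and 9.67 on the full-length arrays. These ranges overlapped, the log2 fold change was -0.31 ± 0.16 (SE, limma adjusted p = 0.301), and its second probe gave -0.41 ± 0.22 (SE).

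**Figure D2:**
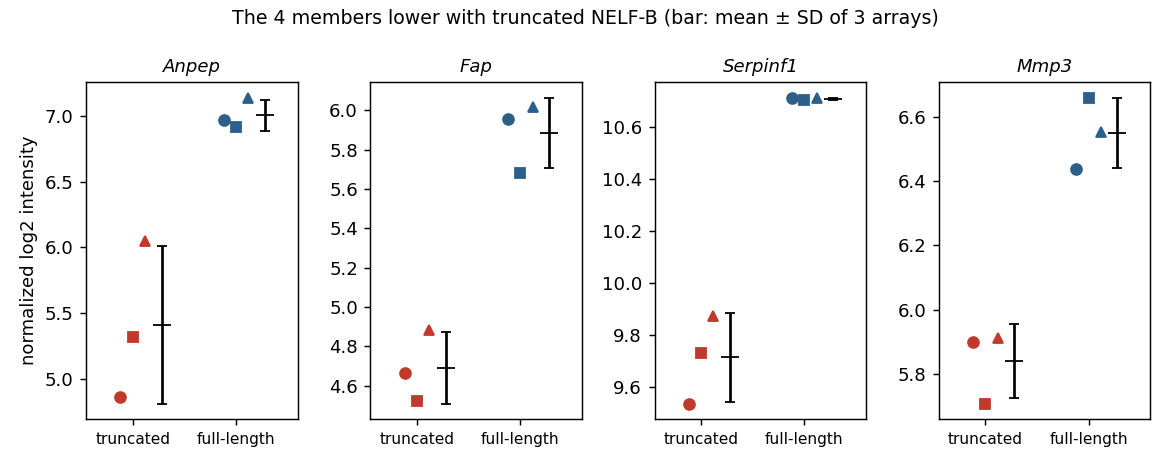
Normalized log2 intensity (vertical axis, a separate range for each gene) of the 4 called members on the 3 truncated arrays (red) and the 3 full-length arrays (blue), with the mean and SD as black bars and the replicate shown by the marker's shape. No truncated point reaches a full-length point in any of the panels, and the full-length points of Serpinf1 lie within a very narrow range (SD 0.004).

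Among the 9 MMPs, 7 were tested, Mmp3 fell and 6 did not pass. Mmp3, stromelysin 1, digests proteoglycans, laminin and fibronectin and activates other MMP precursors. It read 5.90, 5.71 and 5.91 on the truncated and 6.44, 6.66 and 6.56 on the full-length arrays, with no overlap. The Mmp3 means were 5.84 ± 0.11 (SD, n = 3) and 6.55 ± 0.11 (SD, n = 3), truncated and full-length, a log2 fold change of -0.71 ± 0.11 (SE, limma adjusted p = 0.0346) or 1.64-fold lower. The other Mmp3 probes gave -0.63 ± 0.19 and -0.55 ± 0.22 (SE), the same direction, but the arrays of the former overlapped between the forms. Neither passed, with a limma p adjusted over all probes of 0.136 and 0.216. With the mean of the 3 Mmp3 probes in place of the brightest, Mmp3 did not pass.

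Mmp3 lies on mouse chromosome 9 near Mmp13, a collagenase gene, and Mmp10, the gene of stromelysin 2. Mmp13 read 5.23, 5.68 and 4.998 on the truncated and 5.42, 5.04 and 5.17 on the full-length arrays, which overlapped, with a log2 fold change of 0.09 ± 0.18 (SE, limma adjusted p = 0.827). Mmp10 was above background on no array. Stromelysin and collagenase promoters are textbook examples of control by AP-1, the dimer of FOS and JUN proteins, so the promoters of these neighbours and of Plaur, the one member whose truncated arrays all lay above the full-length ones, were searched for the core letters TGANTCA. These letters read the same on the opposite strand. RefSeq windows of 300 bases, 250 before and 50 after each start (build GRCm38.p6), were given for 27 members, and 6 of them held the letters in at least 1 window (Mmp3, Mmp10, Mmp13, Plaur, Mme and Adam19), where 8.97% of all 27025 genes with a window did so. Counted by window, 7 of the members' 32 windows held them, where 7.81% of all 32851 windows did so. The 120 bases before the start of 4 of them are shown to set the place of the match side by side, 5′ to 3′ on the plus strand, with the match in capitals.
Mmp3: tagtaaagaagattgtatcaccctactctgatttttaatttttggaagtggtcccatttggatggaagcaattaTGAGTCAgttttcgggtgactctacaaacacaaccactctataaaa
Mmp10: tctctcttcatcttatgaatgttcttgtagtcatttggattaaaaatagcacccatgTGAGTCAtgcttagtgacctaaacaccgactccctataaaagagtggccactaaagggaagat
Mmp13: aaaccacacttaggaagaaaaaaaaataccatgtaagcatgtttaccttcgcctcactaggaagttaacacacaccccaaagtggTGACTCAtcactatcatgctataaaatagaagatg
Plaur: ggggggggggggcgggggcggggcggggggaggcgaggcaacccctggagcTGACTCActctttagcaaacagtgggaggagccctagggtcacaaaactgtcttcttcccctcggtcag
The windows are chr9:7445702-7445821 for Mmp3, chr9:7502222-7502341 for Mmp10, chr9:7272394-7272513 for Mmp13 and chr7:24462363-24462482 for Plaur. The first base of the match lies 46 bases before the start in Mmp3, 63 in Mmp10, 35 in Mmp13 and 69 in Plaur. The same letters stood before a called member (Mmp3) and a member not above background (Mmp10). They also stood before a member whose groups overlapped (Mmp13) and a member higher on all truncated arrays (Plaur). The windows of Anpep and Serpinf1 did not hold them, and Fap was not searched. A match in these letters describes the sequence and does not show binding. Any part of AP-1 in the members' values was not tested.

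The gelatinase gene Mmp2, whose product digests denatured collagen and basement membrane collagen, read 13.72, 13.79 and 13.96 on the truncated and 14.34, 14.27 and 14.16 on the full-length arrays. All truncated values lay below all full-length ones, but the difference did not pass the test (-0.43 ± 0.11, SE, limma adjusted p = 0.0918). Its 95% interval, -0.69 to -0.18, excluded a 2-fold change. Mmp11, the stromelysin 3 gene, read 8.07, 7.92 and 8.12 on the truncated and 8.18, 8.40 and 8.47 on the full-length arrays, without overlap (-0.31 ± 0.12, SE, limma adjusted p = 0.192). The other gelatinase gene, Mmp9, overlapped between the forms and had a log2 fold change of -0.47 ± 0.21 (SE, limma adjusted p = 0.256). Mmp14, whose membrane-anchored product cuts collagen and activates the Mmp2 precursor, read 12.75, 12.81 and 12.91 on the truncated and 13.09, 12.89 and 12.87 on the full-length arrays. Its groups overlapped, and the interval of its log2 fold change, -0.38 to 0.13 around -0.12, lay wholly within 1.5-fold. Mmp23 overlapped too, at -0.18 ± 0.15 (SE). Mmp19 was not tested, being above background on 2 full-length and no truncated array.

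By their brightest probes, the 3 ADAMTS genes that could be tested lay lower with truncated NELF-B on every array, but none passed. Among all genes tested, 12.8% lay wholly lower in this way. Adamts2, which removes the N-terminal propeptide of fibrillar procollagens, read 10.18, 10.23 and 10.51 on the truncated and 10.96, 10.77 and 10.84 on the full-length arrays. Its log2 fold change was -0.55 ± 0.12 (SE, limma adjusted p = 0.063). Its other tested probes gave -0.56, without overlap, and -0.49, with overlap between the forms. The aggrecanase gene Adamts4 read 5.82, 5.54 and 6.01 on the truncated and 6.34, 6.42 and 6.32 on the full-length arrays (-0.57 ± 0.13, SE, limma adjusted p = 0.0712). The Adamts4 probe was dim. With no background correction its log2 fold change was -0.20, against -0.51 for Adamts2 and -0.67 for Adamts1. Adamts1, a versican-cleaving protease, read 9.31, 9.51 and 9.93 on the truncated and 10.45, 10.55 and 10.03 on the full-length arrays. Truncated replicate 3 and full-length replicate 3 of Adamts1 lay close together, and the log2 fold change was -0.76 ± 0.19 (SE, limma adjusted p = 0.0848). The second Adamts1 probe gave -0.56, and its arrays overlapped between the forms. Adamts12 was above background on no array.

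Of the enzymes around procollagen, Bmp1 cuts the C-terminal propeptide and Pcolce and Pcolce2 encode enhancers of that step. Bmp1 read 11.33, 11.38 and 11.53 on the truncated and 11.81, 11.91 and 11.68 on the full-length arrays, without overlap (-0.39 ± 0.11, SE, limma adjusted p = 0.115). Its 4 tested probes did not all run one way, since 3 gave log2 fold changes from -0.57 to -0.39 and a dim one gave 0.10 ± 0.32 (SE). Pcolce read 12.70, 12.80 and 12.88 on the truncated and 13.08, 13.09 and 13.21 on the full-length arrays (-0.33 ± 0.11, SE, limma adjusted p = 0.133). Those groups did not overlap either, whereas Pcolce2 overlapped and had a log2 fold change of -0.04 ± 0.12 (SE).

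The secreted serine protease gene Htra1 read 9.63, 9.53 and 9.63 on the truncated and 10.06, 10.02 and 9.94 on the full-length arrays. Its groups were apart and tight, its 2 probes gave the same log2 fold change of -0.41, and it did not pass (limma adjusted p = 0.0848). Its relative Htra3 overlapped between the forms, with 4.75, 5.23 and 5.70 on the truncated and 5.61, 5.90 and 5.99 on the full-length arrays (-0.61 ± 0.22, SE, limma adjusted p = 0.18).

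None of the 3 tested ADAM genes passed. Adam17, which releases TNF and ligands of the EGF receptor, read 8.44, 8.59 and 8.63 on the truncated and 8.64, 8.90 and 8.89 on the full-length arrays, with the highest truncated and the lowest full-length array nearly level (-0.26 ± 0.12, SE, limma adjusted p = 0.269). Adam9 and Adam15 overlapped, with log2 fold changes of 0.05 ± 0.11 and -0.12 ± 0.11 (SE). The Adam10 and Adam12 probes were above background on no array.

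In the plasminogen system, Plau encodes urokinase, which turns plasminogen into plasmin, and Plaur its surface receptor. Plau read 8.86, 8.58 and 8.90 on the truncated and 8.76, 8.93 and 8.65 on the full-length arrays, fully mixed, and the interval of its log2 fold change, -0.30 to 0.29, lay within 1.5-fold. Plaur, by contrast, read 6.85, 6.74 and 7.01 on the truncated and 6.57, 6.67 and 6.59 on the full-length arrays. All truncated values lay above all full-length ones, and the log2 fold change of 0.26 ± 0.11 (SE) did not pass (limma adjusted p = 0.247). Plat, the tissue-type activator gene, was above background on no array.

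Of the 6 inhibitors and serpins, 5 were tested and only Serpinf1 fell. Serpinf1 encodes pigment epithelium-derived factor, a secreted serpin with no known protease inhibition that restrains vessel growth and binds collagen. It read 9.54, 9.73 and 9.88 on the truncated and 10.71, 10.71 and 10.71 on the full-length arrays. The full-length arrays were almost identical and every truncated array lay well below them. The Serpinf1 mean was 9.71 ± 0.17 (SD, n = 3) with truncated and 10.71 ± 0.004 (SD, n = 3) with full-length NELF-B, a log2 fold change of -0.997 ± 0.117 (SE, limma adjusted p = 0.0189).

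No TIMP passed the test. Timp2, which blocks MMPs and also takes part in Mmp2 activation by Mmp14, read 13.03, 13.04 and 13.21 on the truncated and 13.43, 13.51 and 13.31 on the full-length arrays, without overlap (-0.32 ± 0.11, SE, limma adjusted p = 0.158). Timp1 read 13.49, 13.56 and 13.64 on the truncated and 13.71, 13.65 and 13.80 on the full-length arrays, also without overlap, at -0.16 ± 0.10 (SE, limma adjusted p = 0.437). A second Timp1 probe gave 0.08 ± 0.11 (SE), the opposite sign. Timp3, which binds to the matrix and blocks ADAM and ADAMTS enzymes as well as MMPs, read 10.64, 10.56 and 10.75 on the truncated and 10.35, 10.64 and 10.74 on the full-length arrays. Its groups overlapped, and both its probes lay slightly above 0 (0.08 ± 0.13 and 0.11 ± 0.14, SE). Reck read 7.16, 7.49 and 7.66 on the truncated and 7.76, 7.83 and 7.53 on the full-length arrays, with overlap (-0.27 ± 0.15, SE, limma adjusted p = 0.359). Serpine2, an inhibitor of urokinase and thrombin, was not tested, with 2 full-length and no truncated array above background.

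**Figure D3:**
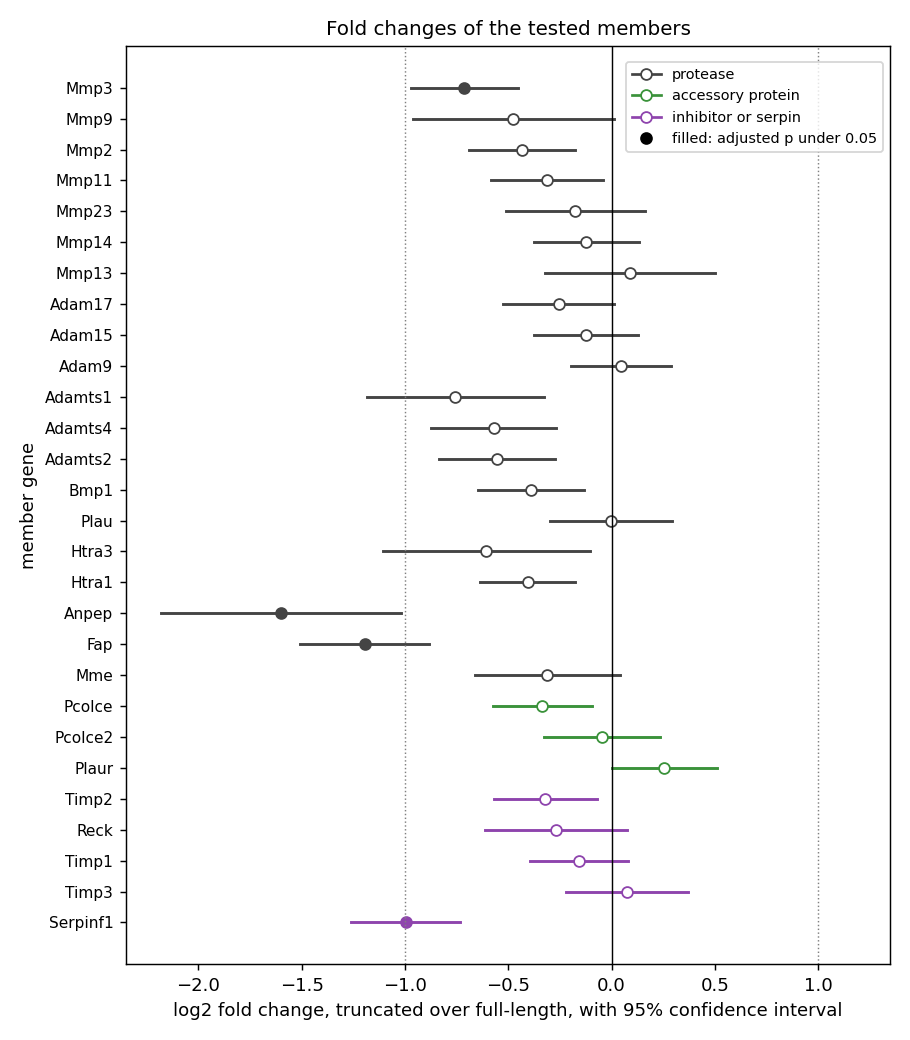
Log2 fold change of truncated over full-length NELF-B (points) with its 95% confidence interval (lines) for the 28 tested members, by function, filled where the adjusted p was under 0.05 and with dotted lines at 2-fold. The intervals of Anpep, Fap, Serpinf1, Adamts1 and Htra3 reach beyond 2-fold lower, and no interval reaches 2-fold higher.

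Set side by side, most proteases and most inhibitors had values below 0. The 20 tested proteases had a median log2 fold change of -0.40, with 3 called lower, 18 below 0 and 2 above. The 5 tested inhibitors and serpins had a median of -0.27, with 1 called lower, 4 below 0 and 1 above. Of all 8990 genes tested, 1.09% were called lower and 4341 lay below 0. Without Serpinf1 the 4 inhibitors left, the TIMPs and Reck, had a median of -0.21 and none was called. With no detection filter the medians were -0.31 over 27 proteases and -0.26 over 6 inhibitors. These medians rest on few genes, chosen by name with earlier results of these data known, and no test was run between them.

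Of 9 protease and inhibitor pairs with a known match, 7 could be measured. Plau with Serpine2 and Plat with Serpine2 could not, since Serpine2 and Plat were not tested. In the 7 pairs, the change in the protease was set against the change in the inhibitor on the same arrays. The log2 fold change of Mmp3 was lower than that of Timp1 by 0.55 (difference -0.55), that of Adamts4 lower than that of Timp3 (-0.65), and that of Adam17 lower than that of Timp3 (-0.33). In each of these pairs the per-array difference lay lower on all 3 truncated arrays than on all 3 full-length arrays, and so it did for Mmp2 and Timp2, by a small amount (-0.11). Mmp14 and Timp2 ran the other way, with a difference of 0.20 and no overlap. Mmp9 with Timp1 (-0.32) and Mmp14 with Reck (0.15) overlapped between the forms. With no background correction the difference was -0.11 for Mmp3 and Timp1, whose arrays then overlapped, -0.27 for Adamts4 and Timp3, -0.01 for Mmp9 and Timp1 and 0.04 for Mmp14 and Reck. With normexp without negative controls these were -0.25, -0.38, -0.10 and 0.08. As reported, an exact permutation test (two-sided) gave p = 0.1 for the 5 pairs without overlap, the smallest that 3 against 3 arrays allow, so no pair could pass at 0.05, and adjusted over the 7 pairs it was 0.14. Of single genes, 25.7% of all 8990 tested did not overlap in either direction, and no such share was computed over pairs. Several pairs share a gene and are not independent.

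For most uncalled members the intervals bound the change. Of these 24 members, the 95% interval of 22 excluded a 2-fold change in both directions and that of 14 excluded a 1.5-fold change, and the 2 whose interval reached past 2-fold were Adamts1 and Htra3. For dim probes the interval bounds the measured fold, which the offset shrinks, and not the difference in RNA. Among the 9 members with more than 1 tested probe, 7 had probes that all ran one way, the exceptions being Bmp1 and Timp1.

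The truncated arrays were not alike. Centred on all arrays, the mean of the 20 proteases was -0.29, -0.29 and -0.09 on truncated replicates 1, 2 and 3, and 0.22, 0.25 and 0.20 on the full-length arrays. For the 5 inhibitors and serpins it was -0.29, -0.18 and -0.03 on the truncated and 0.13, 0.21 and 0.16 on the full-length arrays. Without Serpinf1, the mean of the 4 left was -0.190, -0.107 and 0.044 on the truncated and 0.043, 0.137 and 0.073 on the full-length arrays. Those arrays overlapped between the forms. Truncated replicate 3 was the highest truncated array for all 4 called members and for 20 of the 24 tested members below 0, and for 49.9% of all genes below 0. Some marker lists followed this order in their means and others did not. On truncated replicates 1, 2 and 3, the mean of 2 macrophage and leukocyte genes was 0.28, -0.22 and -0.04. Kdr, the 1 endothelial gene tested, was at -0.11, -0.41 and -0.15, and the epithelial gene Cdh1 at -0.34, 0.06 and -0.01. The means of the proliferation and fibroblast markers came nearer to the full-length arrays from replicate 1 to 3. Not every gene in them did so, since Col3a1 and Pdgfrb were highest on truncated replicate 1. The mean of 9 measured proliferation genes, of which Mcm3 and Rrm2 were called higher and all had values above 0, was 0.38, 0.17 and 0.03 on the truncated and -0.22, -0.04 and -0.32 on the full-length arrays. That of 6 fibroblast markers, none of them called and 5 below 0, was -0.29, -0.18 and -0.12 on the truncated and 0.17, 0.23 and 0.19 on the full-length arrays. The part of either list in the members' result was not tested.

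The calls changed when 1 array was left out, and the sizes of dim genes changed with the background correction. No member was called without replicate 1 or 2 of the truncated arrays, or without replicate 1, 2 or 3 of the full-length ones, where, in that order, 0, 9, 0, 0 and 6 of all genes were called and 13, 13, 15, 11 and 13 members had an unadjusted limma p under 0.05, and 7 members were called without truncated replicate 3. The log2 fold changes in those 5 fits without a call ran from -1.65 to -1.32 for Anpep, from -1.30 to -1.11 for Fap, from -0.77 to -0.65 for Mmp3 and from -1.01 to -0.91 for Serpinf1. With no background correction the log2 fold change of Mmp3 was -0.27, while that of Serpinf1 stayed between -1.08 and -0.90 over all 18 alternatives.

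**Figure D4:**
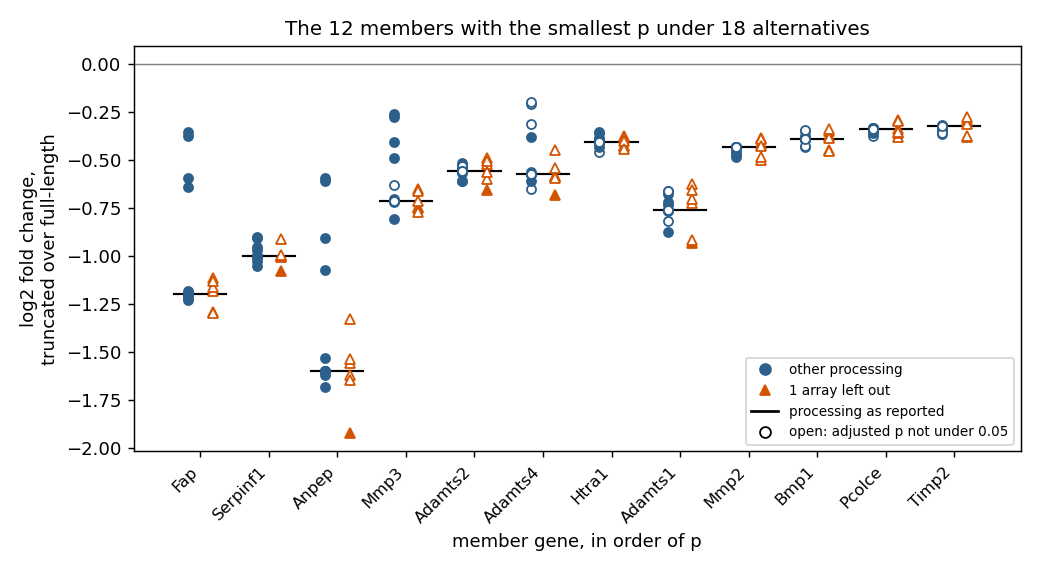
Log2 fold change of truncated over full-length NELF-B (vertical axis) for the 12 members with the smallest p, as reported (black line) and under 12 other ways of processing (blue circles) or with 1 of the 6 arrays left out (orange triangles), filled where the adjusted p was under 0.05. All values of these genes lie below 0, and those of Fap, Anpep, Mmp3 and Adamts4 spread most.

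Among 85 further genes of proteases, their relatives and inhibitors, not all of them extracellular, 27 were tested and none passed. Of the 27, 20 had values below 0, and the median log2 fold change was -0.29. At an unadjusted p under 0.05, 13 of these were lower, where 10.3% of all genes were, and 0 were higher. The truncated arrays lay wholly below the full-length arrays for 12 of the 27, where 12.8% of all genes did so. They lay wholly above for 2, Furin and Cstb, where 12.9% of all genes did so. This further list, too, was chosen with earlier results of these data known. The 8 with the smallest p were the complement C1 inhibitor gene Serping1 (-0.64 ± 0.15, SE), the catalytically inactive ADAM gene Adam23 (-0.71 ± 0.17, SE), Adamts15 (-0.82 ± 0.22, SE), the serine protease-like gene Prss35 (-0.56 ± 0.15, SE), Serpina3n (-0.70 ± 0.19, SE), Adamts16 (-0.64 ± 0.18, SE), the secretory leukocyte protease inhibitor gene Slpi (-0.44 ± 0.13, SE) and Adamts7 (-0.51 ± 0.15, SE). Their limma adjusted p ran from 0.0741 to 0.114. The Serpina3 family holds near-identical copies, so the Serpina3n value is uncertain.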

How the data were processed

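RNA from 3 truncated and 3 full-length MEF samples was hybridised to single-colour bead arrays. The authors deposited a signal intensity and a detection p-value per probe, exported from GenomeStudio per the submitters' processing notes, with no normalization per the file headers. The lowest deposited intensity was 103, so no background had been subtracted. A second deposited table of intensities, with column medians of 143 and no stated processing, was used as an alternative. Unused value columns numbered 0. The labels name neither chip nor scan date.

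Members were found by the file's gene symbol, and RefSeq accessions (gene table of assembly GRCm38.p6) gave their 53 probes the same names. Of all 25697 probes, an accession named 24202, a current symbol 536 and an unambiguous synonym 297, while 662 stayed under the symbol in the file. The neqc function of limma 3.58.1 (R 4.3.3) subtracted background by normexp, with negative controls inferred from detection p-values and an offset of 16, then quantile normalized the intensities and took log2. Probes with detection p under 0.05 on at least 3 arrays were kept. The brightest probe on average represented a gene, which left 8990 genes. Groups were compared with lmFit and eBayes without covariates. Pairs were compared by an exact permutation test.

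Members and lists were chosen with earlier results of these data known. Every member is named. Per-array values are given for members called, for those with an unadjusted p under 0.05 and no overlap, and for inhibitors, with some others added for contrast after their values were seen. Of the further proteases and inhibitors, the 8 with the smallest p are named. The fit was tried on simulated data with independent genes and arrays, which does not show how it performs on arrays as unlike as these. The alternatives changed the background correction, offset, normalization, filter, probes per gene, variance model, weights, block and arrays, and arrays were left out after normalization. No arrays were identical. Protein sequences were not used here. Figures were drawn with matplotlib 3.10.9.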

Additional observations from a re-analysis of the deposited data

How the results depend on the processing

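Over 18 alternative fits, the log2 fold changes of the 4 called members kept their sign. Of the 12 that kept all arrays, Fap and Serpinf1 passed in 12, Anpep in 11 and Mmp3 in 9. Fap entered every filtered fit only through the full-length arrays, so its count describes the fits and adds no support. Its log2 fold change in these 12 ran from -1.22 with array weights to -0.35 with no background correction. The number of members called was 4 as reported, 11 with no background correction, with the deposited normalized table or with a variance trend and robust eBayes, 10 with normexp without negative controls or with an offset of 50, 9 with array weights and 2 with no filter, and it ran from 0 to 7 with 1 array left out. Every one of these calls was lower. Those gained were among Adamts1, Adamts2, Adamts4, Bmp1, Htra1, Mmp2, Pcolce and Timp2. For these settings in the same order, all genes called numbered 144, 706, 731, 728, 633, 531, 354 and 33, and 0 to 274 with 1 array left out. They numbered 81 with median scaling, of which 85.2% were lower against 68.1% as reported, and 243 with a detection p under 0.01. The share that was lower was 52.5% with no background correction, 52.1% with the deposited table, 52.9% with a variance trend, 54.8% with normexp without controls, 56.3% with an offset of 50, 58.2% with array weights and 81.8% with no filter. The further proteases and inhibitors, with none called as reported, had 7 called with no background correction, with the deposited table or with a variance trend, 5 with normexp without controls, 6 with an offset of 50, 3 with array weights, and 0 to 4 with 1 array left out. The protease median of -0.40 was -0.21 with no background correction, -0.20 with the deposited table, -0.29 with normexp without controls and -0.31 with no filter. The inhibitor median of -0.27 was -0.16 with no background correction and with the deposited table, and ran from -0.38 to -0.13 with 1 array left out. The sign changed for Adam9 with median scaling (-0.0188), and for 5 uncalled members with 1 array left out: Adam9 ran from -0.0021 to 0.10 (below 0 without full-length replicate 3), Mmp13 from -0.0978 to 0.242 (below 0 without truncated replicate 2), Plau from -0.0688 to 0.0985 (above 0 without truncated replicate 2 or full-length replicate 2), Pcolce2 from -0.116 to 0.0422 (above 0 without truncated replicate 3 or full-length replicate 2) and Timp3 from -0.0387 to 0.155 (below 0 without full-length replicate 1). Why the counts moved was not tested.

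A pairing of the arrays by replicate number was not seen, but 3 arrays per form cannot exclude one. The correlation of same-numbered deviations from the group means was 0.03, -0.16 and -0.14, and only 1 of the 3 truncated arrays correlated best with its own number. With the replicate number as a block, 33 genes and 3 members (Anpep, Fap and Serpinf1) were called. Signal over background limits Fap, Anpep, Htra3, Mmp13 and Mmp23, whose probes missed it on at least 1 truncated array, and the 8 members that could not be tested.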
